A study of Mus musculus with 12 samples.

Results

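Gene-end regions with an acetylation peak in every library of wild-type Th17 cells and no paired-end peak in any library of GLUT3-deficient Th17 cells numbered 430 of 56643 regions in all. A region is the union of overlapping or touching peaks of histone H3 acetylated at lysines 9 and 14 (H3K9/14ac) from 6 libraries. A region became a member when a peak lay in 3 of 3 wild-type (WT) and 0 of 3 GLUT3-deficient (KO) libraries, within 2 kb of either end of a protein-coding gene. The members were chosen by the presence and absence of peaks in the same libraries that are described here, so every difference between KO and WT in them is a description and carries no test. The members touched 453 of 21896 protein-coding genes.

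The KO cells carried Slc2a3-fl/fl and Cd4-cre, and were compared with WT cells of the same C57BL/6 strain. Slc2a3 encodes the glucose transporter GLUT3, and Cd4-cre deletes floxed alleles in developing T cells. Acetylation peaks do not show whether Slc2a3 was deleted, so the genotype is given as labelled. Whether the WT cells carried Cd4-cre, and whether the 3 replicates per genotype came from separate mice, is not given in the labels, so the spread between replicates may be technical. Cells of both genotypes had been naive T cells, received 3 days of Th17-polarising culture, and were then restimulated for 3 h with PMA and ionomycin while Bref A and Monensin blocked secretion. Chromatin was barcoded inside nuclei by the RELACS protocol, and the 6 samples shared 1 immunoprecipitation. Input libraries, 3 per genotype, were not analysed here.

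Acetyl groups on histone H3 are placed by acetyltransferases that use acetyl-CoA, and H3K9/14ac marks active promoters and enhancers. Th17 cells are CD4 T cells that secrete IL-17A and IL-17F and arise under the transcription factor RORγt. After activation they take up more glucose, through transporters that include GLUT3, and part of its carbon reaches acetyl-CoA.

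The libraries differed in coverage between genotypes. Mean background height, recovered from the peak statistics, was 1.85, 2.29 and 1.92 in KO replicates 1 to 3, against 3.55, 3.21 and 2.97 in WT replicates 1 to 3. These heights are on the scale the peak caller gave each library and need not equal fragment counts. Averaged by genotype on that scale, KO background was 0.623 times that of WT, and the groups did not overlap. The lists held 39264 to 40582 peaks in KO and 40997 to 43507 in WT libraries. One KO library, replicate 3, listed 11 peaks on chromosome Y against 1 or 2 in each other library. No member lay on Y and 9 lay on X. Leaving that library out gave 542 members. Of 7 T cell markers, all had a gene-end peak in every KO and WT library. Of 7 Th17 markers, 4 had one in 3 of 3 KO and 5 in 3 of 3 WT libraries. These markers' peaks covered 43114 to 47440 bp in KO against 63921 to 68423 bp in WT libraries.

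Promoters that members overlapped are printed for 7 genes, because these members had the highest enrichment, the largest deposited decreases or a gene family described further on. The sequences are from RefSeq, build GRCm38.p6, run from 250 bases before to 50 after the gene start, and read 5′ to 3′ on the gene's strand. Osbpl5 lies at chr7:143756959-143757258 on the minus strand, Ppp1r14c at chr10:3365900-3366199 on the plus strand and Lad1 at chr1:135818348-135818647 on the plus strand. Hemgn lies at chr4:46404134-46404433, Nlrp1a at chr11:71144655-71144954, Hif3a at chr7:17062378-17062677 and Olfr175 at chr16:58826712-58827011, all on the minus strand. Capitals mark matches, on either strand, to the core promoter element TATAAA, to the ETS-type sequence GGAAGT and to the AP-1-type sequence TGANTCA.
Osbpl5: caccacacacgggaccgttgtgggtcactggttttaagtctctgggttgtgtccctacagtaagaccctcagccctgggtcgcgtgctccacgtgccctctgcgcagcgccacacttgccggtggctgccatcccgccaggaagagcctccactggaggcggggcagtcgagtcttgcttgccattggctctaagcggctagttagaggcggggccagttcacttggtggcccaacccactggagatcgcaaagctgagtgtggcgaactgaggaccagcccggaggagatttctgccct
Ppp1r14c: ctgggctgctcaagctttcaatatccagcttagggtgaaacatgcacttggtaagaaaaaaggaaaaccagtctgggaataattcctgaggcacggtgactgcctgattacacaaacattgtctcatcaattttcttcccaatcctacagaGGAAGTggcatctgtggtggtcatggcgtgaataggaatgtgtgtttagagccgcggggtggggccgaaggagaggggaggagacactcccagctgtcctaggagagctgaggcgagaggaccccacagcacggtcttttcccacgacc
Lad1: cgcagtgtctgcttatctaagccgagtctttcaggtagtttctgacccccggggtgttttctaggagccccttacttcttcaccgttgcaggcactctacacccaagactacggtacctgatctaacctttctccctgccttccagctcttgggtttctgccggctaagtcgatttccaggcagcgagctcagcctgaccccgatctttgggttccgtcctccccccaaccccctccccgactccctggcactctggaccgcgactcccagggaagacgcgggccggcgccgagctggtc
Hemgn: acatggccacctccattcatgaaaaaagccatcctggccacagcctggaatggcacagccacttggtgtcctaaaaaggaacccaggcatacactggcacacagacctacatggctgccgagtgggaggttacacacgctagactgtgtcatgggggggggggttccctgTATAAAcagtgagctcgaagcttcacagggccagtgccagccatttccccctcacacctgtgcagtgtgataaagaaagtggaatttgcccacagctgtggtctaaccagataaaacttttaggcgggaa
Nlrp1a: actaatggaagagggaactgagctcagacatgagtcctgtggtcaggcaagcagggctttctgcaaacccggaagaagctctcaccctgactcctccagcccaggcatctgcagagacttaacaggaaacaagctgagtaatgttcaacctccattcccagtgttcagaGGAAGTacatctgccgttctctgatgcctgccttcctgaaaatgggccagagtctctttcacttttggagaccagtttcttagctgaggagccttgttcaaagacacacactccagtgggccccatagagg
Hif3a: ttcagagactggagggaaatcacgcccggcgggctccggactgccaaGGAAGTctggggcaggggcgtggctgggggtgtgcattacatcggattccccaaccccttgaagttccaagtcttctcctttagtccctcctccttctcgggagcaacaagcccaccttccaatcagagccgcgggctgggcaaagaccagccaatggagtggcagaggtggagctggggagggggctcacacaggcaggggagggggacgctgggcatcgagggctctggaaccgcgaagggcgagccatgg
Olfr175: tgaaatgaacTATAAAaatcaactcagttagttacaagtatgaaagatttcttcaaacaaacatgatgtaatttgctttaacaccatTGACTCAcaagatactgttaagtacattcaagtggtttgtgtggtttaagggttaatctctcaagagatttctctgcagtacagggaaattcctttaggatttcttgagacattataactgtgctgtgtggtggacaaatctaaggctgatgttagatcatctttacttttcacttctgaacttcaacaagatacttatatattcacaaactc

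These promoters spanned a wide range of base composition. Lad1 had 60.3% G and C with 18 CpG dinucleotides, and Osbpl5 had 62.0% with 16. At the other extreme, the Olfr175 promoter had 33.0% G and C and no CpG. In all, 120 of 430 members (27.9%) overlapped 129 such windows of 116 genes. The median window overlapped by a member had 60.0% G and C and 16 CpG, against 62.0% and 22 for windows at regions acetylated in all 6 libraries and 56.3% and 13 for all 21262 windows of protein-coding genes. An observed-to-expected CpG ratio of at least 0.6 was met by 55.8% of the windows overlapped by members, 79.9% of those at regions of all 6 libraries and 47.7% of all windows.

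In all, 6 motifs were searched on both strands, and their shares are given for members' windows, for windows at regions of all 6 libraries and for all windows. The core promoter element TATAAA lay in 8.53% of members' windows, 6.18% of windows at regions of all 6 libraries and 12.6% of all windows. GGGCGG, which SP1-type factors bind, lay in 51.9%, 68.0% and 46.2%, in the same order, and GGAAGT in 20.2%, 31.0% and 24.8%. TGANTCA lay in 6.20%, 4.08% and 6.99%, the nuclear receptor sequence AGGTCA in 9.30%, 11.1% and 14.7%, and the CRE-type TGACGTCA in 3.10%, 3.68% and 2.23%. For the SP1-type, core promoter, AP-1-type and CRE-type motifs the members' share lay between the other two. For GGAAGT and AGGTCA the members' share was below both. These are letter matches in 300 bases, and the same window can hold several.

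The members were short and modestly enriched. Their median width was 876.5 bp with quartiles of 650.0 and 1307 bp, and 30 (6.98%) were wider than 2 kb. Gene-end regions with peaks in all 6 libraries had a median width of 2348 bp, and 62.2% were wider than 2 kb. The lowest fold enrichment over local background among the 3 WT peaks, as deposited by the authors, had a median of 3.12 over members and 6.94 over gene-end regions of all 6 libraries. By replicate, the members' median fold was 3.81, 3.83 and 4.09 in WT libraries 1 to 3. Members' peaks covered 0 bp in each KO library by construction, against 353454, 333150 and 338096 bp in WT libraries 1 to 3. The members' medians were thus similar in the 3 WT libraries, each of which had to hold a peak by the rule. Single members varied, and the highest fold fell in WT replicates 1 to 3 for 112, 139 and 179 of them. The median SD of a member's fold over the 3 WT libraries was 0.814, and 66 members (15.3%) had a highest fold more than 2 times their lowest.

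Exclusive regions were more numerous in the WT direction. At gene ends, 117 regions had a peak in 3 of 3 KO and 0 of 3 WT libraries, fewer than the 430 members. Without KO replicate 1, 2 or 3 the KO-only count was 215, 185 or 194 and that of members 544, 551 or 542. KO libraries also had the lower coverage, which cannot be told apart from genotype here. These KO-only regions were alike in size, with a median width of 830.0 bp and a median lowest fold of 3.18 over the 3 KO peaks. Away from gene ends, 2426 regions were WT-only, with a median width of 978.0 bp and a median lowest fold of 2.89. At gene ends and elsewhere together, 2856 regions were WT-only and 1195 KO-only.

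The authors' deposited table gives a log2 fold change of KO over WT and a false discovery rate (FDR) for 40909 regions, of which 40906 were located. The log2 fold change is that of the best window in a region, per the file header, and not of the whole region. A member overlapping several tested regions was given the values of the one with the largest overlap. A tested region overlapped 296 members. The other 134 members had no peak in any of the 6 single-read peak lists, and every tested member had at least 1 such peak. For 266 of the 296, that peak came from WT libraries only, so entry into the table depended on the WT signal. Their values therefore describe the members that entered and give no support for the direction. The authors' deposited table called 276 of these 296 lower in KO and 0 higher at an FDR under 0.05. Among all located regions the share called lower was 46.3% and the share called higher 12.7%, per the authors' deposited table. The authors' deposited table gives the tested members a median log2 fold change of -1.40, with quartiles of -1.84 and -1.02. Its median was -0.62 over all located regions and -0.73 over those within 2 kb of a gene end, per the authors' deposited table. The scaling of libraries behind these values is not stated in the labels or file headers.

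**Figure D1:**
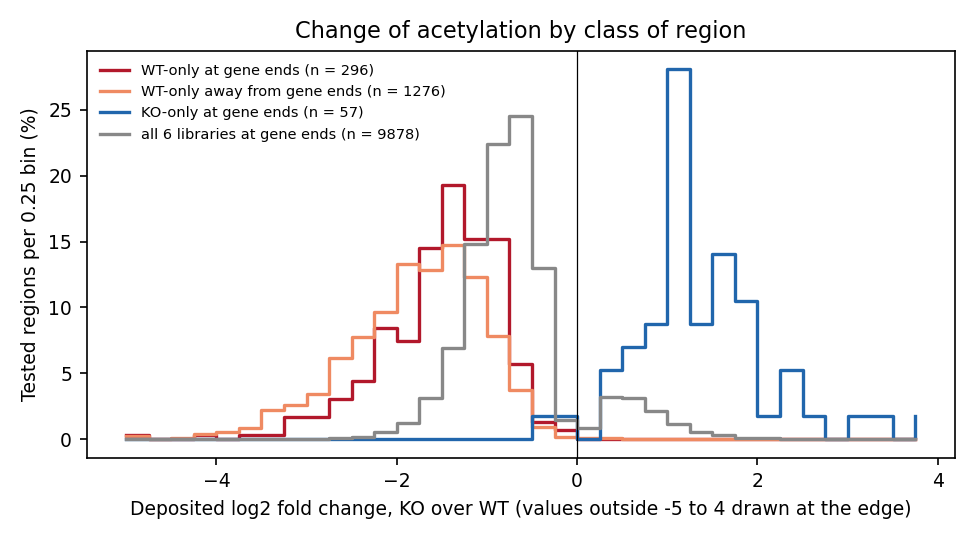
Distribution of the log2 fold change of KO over WT in the authors' deposited table, as the percentage of tested regions per 0.25 bin, for 4 classes of region. The 296 tested members have a median of -1.40, the regions of all 6 libraries at gene ends a median of -0.74, and the 57 tested KO-only regions at gene ends a median of 1.24.

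WT-only regions away from gene ends had a median log2 fold change of -1.69 in the authors' deposited table, below that of the members. Members at a gene start had a median of -1.38 there and those at a gene end -1.56, per the authors' deposited table. The 20 tested members not called lower included one shared by Eif6, BC029722 and Mmp24, at -0.15 in the authors' deposited table, the value nearest 0 among members.

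The most enriched member lay at an end of Epas1, at chr17:86752681-86754038. Epas1 encodes HIF-2α, an oxygen-regulated transcription factor. Its peak had folds of 10.8, 14.2 and 11.2 in WT replicates 1 to 3 and no KO peak in the paired-end lists. All 3 WT values stood far above the members' median. The authors' deposited table gives it a log2 fold change of -2.19 (FDR = 3.53e-12). Peaks of the single-read lists were present there in 3 of 3 KO libraries, so its absence in KO holds for the paired-end lists alone.

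Osbpl5, which encodes a lipid transfer protein of the oxysterol-binding family, carried a member of 2174 bp over its start. The folds were 10.7, 15.0 and 9.91 in WT replicates 1 to 3, with replicate 2 the highest. Its log2 fold change was -2.19 in the authors' deposited table, and 2 KO libraries had a single-read peak there. Pkd1, which encodes the membrane protein polycystin-1, had a member at its start with folds of 9.80, 11.1 and 8.74 in WT replicates 1 to 3. The 3 replicates were close together. A KO peak lay 456 bp away, single-read peaks lay in the member in 2 KO libraries, and the authors' deposited table gives a log2 fold change of -2.00.

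Other strongly enriched members lay at genes with varied roles. The Nfic member, at the start of a gene for a nuclear factor I transcription factor, had folds of 8.75, 7.14 and 12.2 in WT replicates 1 to 3 and -2.15 as log2 fold change in the authors' deposited table. Scube1, a gene for a secreted and membrane protein with EGF-like domains, had folds of 7.84, 8.47 and 11.1, and a log2 fold change of -1.93 in the authors' deposited table. Both had no single-read peak in any KO library. A paired-end KO peak lay 779 bp from the Nfic member, however, and a region of all 6 libraries lay at the same gene end. Ppp1r14c, which encodes an inhibitor of protein phosphatase 1, had folds of 7.04, 8.66 and 7.14, with the nearest KO peak 143184 bp away. Its log2 fold change of -2.86 in the authors' deposited table was the lowest among the 10 most enriched members. A further member lay at the other end of Ppp1r14c, with folds of 3.57, 4.97 and 4.48 in WT replicates 1 to 3. The remaining members among the 10 most enriched lay at Coro2b, Pcbp3, Fam174b and Olfr536, and their log2 fold changes ran from -2.50 to -0.98 in the authors' deposited table. Coro2b encodes an actin-binding coronin and Pcbp3 an RNA-binding protein, and each had a single-read peak in 1 KO library. In all, 5 of the 10 most enriched members had a KO single-read peak, against 30 of all 430 (6.98%).

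**Figure D2:**
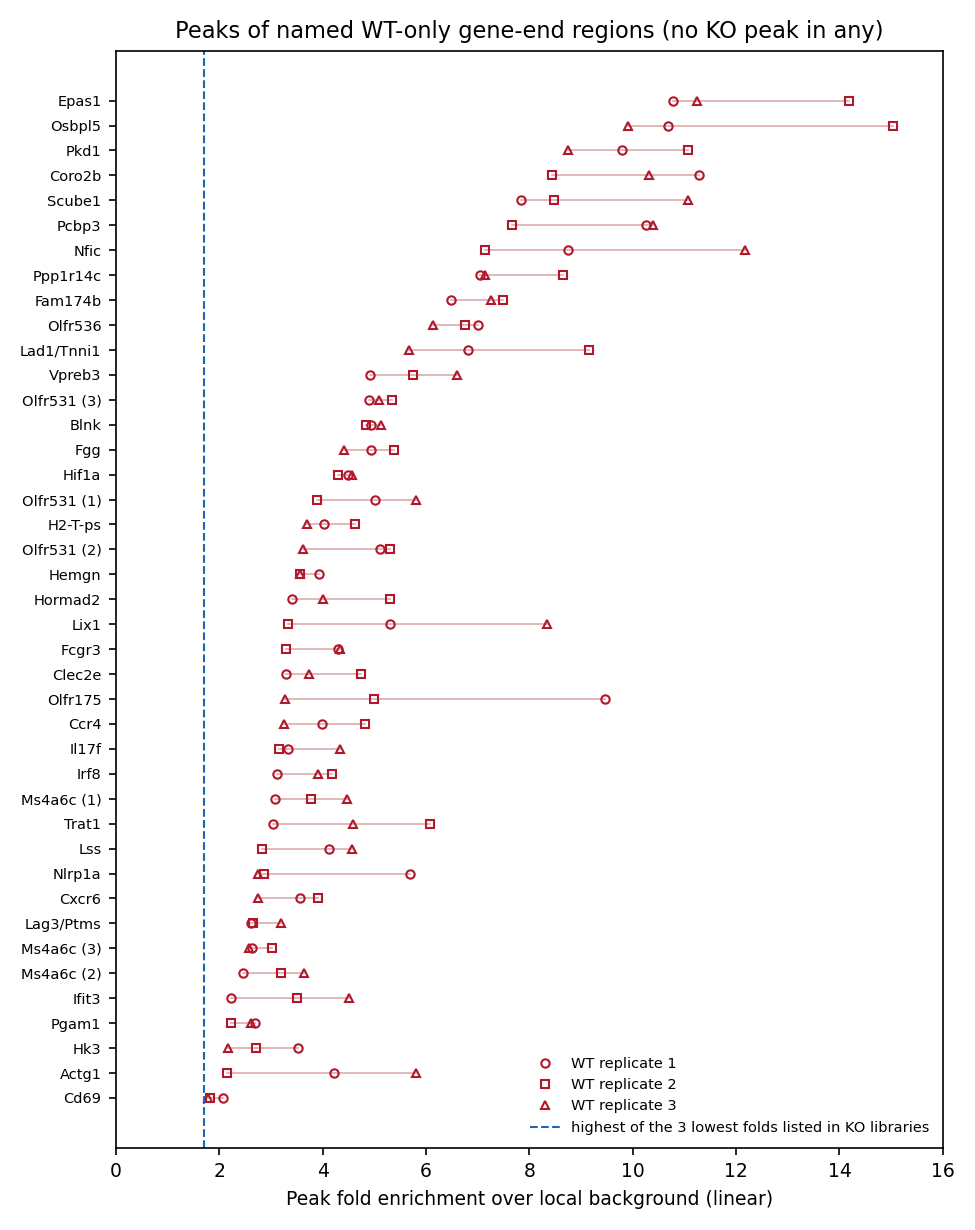
Fold enrichment of the peak in each WT replicate for named members, sorted by the lowest of the 3 values, with a line joining each member's lowest and highest value. The dashed line is 1.70, the lowest fold listed in KO replicate 1 and the highest of the 3 KO lists' lowest folds; the Epas1 folds of 10.8 to 14.2 lie far right of it and the Cd69 folds of 1.78 to 2.08 lie next to it.

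Fgg, which encodes the fibrinogen gamma chain made by hepatocytes, had folds of 4.94, 5.39 and 4.41 in WT replicates 1 to 3 over 3194 bp. The authors' deposited table gives it the lowest log2 fold change of all members, -4.96 (FDR = 2.76e-12). The nearest KO peak was 36212 bp away. Among the 17 epithelial and hepatocyte markers, 1 had a gene-end peak in 3 of 3 KO and 3 in 3 of 3 WT libraries, and 13 had none in any library. Their peaks covered 2178 to 4876 bp in KO and 5036 to 9274 bp in WT libraries, and the part of such cells in the Fgg value was not tested.

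Hormad2, which encodes a protein of meiotic chromosomes, had 1 member at each end. The wider, of 5246 bp, had folds of 3.41, 5.30 and 4.00 in WT replicates 1 to 3 and a log2 fold change of -3.65 in the authors' deposited table (FDR = 3.42e-31). The other, at the gene start, had folds of 3.34, 5.91 and 5.60, and its log2 fold change was -1.68 in the authors' deposited table. WT replicate 1 was lowest at both ends. A region of all 6 libraries also lay at the Hormad2 start, and a KO peak lay 3209 bp from the wider member.

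The widest member spanned 8003 bp over the start of Lad1, which encodes the anchoring filament protein ladinin-1, and the end of Tnni1, which encodes slow skeletal muscle troponin I. Its folds were 6.81, 9.15 and 5.66 in WT replicates 1 to 3. The log2 fold change was -3.10 in the authors' deposited table (FDR = 7.63e-19), and no single-read KO peak was present. With genes named Gm plus digits or ending in Rik passed over, Clec2e and Olfr175 carried the next widest members after Hormad2. These spanned 3892 and 3418 bp, at a C-type lectin-related gene and an olfactory receptor gene. The Olfr175 member varied most among those named here, with folds of 9.47, 4.99 and 3.27 in WT replicates 1 to 3. A member wider than those of Clec2e and Olfr175 lay at Gm11541, at chr11:94694694-94699108.

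Trat1, which encodes an adaptor protein bound to the T cell receptor, had 2 members at its start. The lower of the pair had folds of 3.03, 6.08 and 4.59 in WT replicates 1 to 3 and a log2 fold change of -3.03 in the authors' deposited table. The other had folds of 7.29, 3.30 and 5.25 and a log2 fold change of -2.59 in the authors' deposited table. The order of the WT replicates differed between them. Nlrp1a, an inflammasome sensor gene, had folds of 5.69, 2.87 and 2.75 and a log2 fold change of -3.07 in the authors' deposited table. Hemgn, which encodes a nuclear protein of blood cell progenitors, had folds of 3.92, 3.55 and 3.56 and a log2 fold change of -2.95 in the authors' deposited table. Of the 8 erythroid markers, 0 had a gene-end peak in 3 of 3 KO and 2 in 3 of 3 WT libraries. With genes named Gm plus digits or ending in Rik passed over, members at H2-T-ps, Olfr531 and Lix1 were also among the 10 lowest. They lay between -3.05 and -2.89 in the authors' deposited table. At H2-T-ps and Lix1 a region of all 6 libraries lay at the same gene end as the member. The Gm11541 member, passed over by that rule, had -4.21 in the authors' deposited table (FDR = 4.59e-22). At Lix1 the folds of 5.31, 3.33 and 8.35 in WT replicates 1 to 3 were widely spread.

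Among 27 Th17 lineage and effector genes, 2 (7.41%) carried a member, against 453 of 21896 (2.07%) of all protein-coding genes. A gene-end region was present at 24 of the 27 and at 12425 of the 21896. The share of 2.07% also stands beside the counts of the gene lists below. Il17f, the gene of the cytokine IL-17F, had a member 1001 bp from its start, at chr1:20786276-20786884. The folds were 3.32, 3.15 and 4.33 in WT replicates 1 to 3, and the log2 fold change was -1.38 in the authors' deposited table (FDR = 4.34e-06). Another peak within 2 kb of an Il17f end was present in 1 KO library, and a KO peak lay 1560 bp from the member. Hif1a, which encodes HIF-1α, a factor that promotes glycolysis and the Th17 programme, had a member of 2030 bp at its 3′ end, at chr12:73948236-73950265. Its folds of 4.50, 4.30 and 4.56 in WT replicates 1 to 3 were among the most even, with a mean of 4.45 ± 0.13 (SD, n = 3). The authors' deposited table gives it -1.94 (FDR = 6.29e-14), and the gene's other end had a region of all 6 libraries.

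The oxygen-response factors were looked at together after these values were seen. All 3 genes for HIF alpha subunits carried members. Hif3a had 2, of which 1 overlapped the promoter printed above, with folds of 2.41, 2.31 and 2.99 in WT replicates 1 to 3, and was not in the authors' deposited table. The other, shared with Ppp5c, had folds of 2.41, 4.43 and 5.06 and a log2 fold change of -1.56 in the authors' deposited table. The tested members of the 3 genes ran from -2.19 to -1.56 in the authors' deposited table.

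Of 29 T cell identity and receptor signalling genes, 0 carried a member, and all 29 had a gene-end region. Among 29 stimulation-induced early genes, Cd69 and Irf8 carried one. Irf8, a gene for an interferon regulatory factor, had folds of 3.12, 4.19 and 3.91 in WT replicates 1 to 3, and a log2 fold change of -1.32 in the authors' deposited table (FDR = 1.41e-03). A KO peak lay 704 bp from the Irf8 member, and a region of all 6 libraries lay at the same gene end. Cd69, the gene of an early activation antigen, had folds of 2.08, 1.82 and 1.78, near the lowest value of any member, 1.69. The Cd69 member was not tested in the authors' deposited table, and a region of all 6 libraries lay at the gene's other end. Lag3, an inhibitory receptor gene next to Ptms, had folds of 2.62, 2.66 and 3.19, with a KO peak 295 bp away. Of 25 genes typical of the remaining helper and regulatory subsets, Lag3 was the 1 with a member. The chemokine, homing and adhesion list of 25 had members at the chemokine receptor genes Ccr4 and Cxcr6. Ccr4 had folds of 3.99, 4.82 and 3.26 and a log2 fold change of -0.91 in the authors' deposited table (FDR = 3.83e-03). Cxcr6 had folds of 3.57, 3.91 and 2.74 and was not tested there.

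Metabolic genes were covered by 4 lists. Of 28 glucose uptake and glycolysis genes, 2 did. Hk3, a hexokinase gene, had folds of 3.53, 2.72 and 2.17 in WT replicates 1 to 3 and a log2 fold change of -1.07 in the authors' deposited table (FDR = 3.51e-04). Pgam1, which encodes phosphoglycerate mutase, had folds of 2.70, 2.22 and 2.61, lay 542 bp from a KO peak and was not tested there. No member lay at 31 genes that supply acetyl-CoA or set histone acetylation, at 24 of mitochondrial respiration or at 29 of cell division and DNA replication. Of 23 genes of cholesterol and fatty acid synthesis, 1 did. That was Lss, which encodes lanosterol synthase, with folds of 4.12, 2.83 and 4.57 and -1.07 in the authors' deposited table. A KO peak lay 301 bp from the Lss member, and a region of all 6 libraries lay at the same gene end. Interferon response genes had 1 member in 19, at Ifit3, which was untested, and housekeeping genes 1 in 20, at Actg1. The Actg1 member lay 211 bp from a KO peak and had -0.87 in the authors' deposited table.

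Genes used as markers of other cell types also carried members. Of 11 B cell markers, 2 (18.2%) did, Blnk and Vpreb3, against 2.07% of all protein-coding genes. Blnk, an adaptor gene of B cell receptor signalling, had folds of 4.94, 4.83 and 5.13 in WT replicates 1 to 3 and -2.09 in the authors' deposited table. Vpreb3 had folds of 4.91, 5.75 and 6.60 and -1.65 in the authors' deposited table. Of the 11, 7 had no gene-end peak in any library, Ms4a1 and Pax5 among them, while the defining genes Cd79a and Ebf1 had one in every library. Vpreb3 also had one in every library, with a region of all 6 libraries at the end opposite its member. Blnk had none in any KO library. Vpreb3 peaks covered 5038, 5468 and 4585 bp in KO and 6707, 6067 and 5490 bp in WT replicates 1 to 3. Ebf1 peaks covered 2569, 2833 and 2792 bp in KO replicates 1 to 3, against 4195, 3976 and 4196 bp in WT replicates 1 to 3. Cd79a peaks covered 7336, 8219 and 6980 bp in KO and 8200, 9415 and 9074 bp in WT replicates 1 to 3. The groups overlapped for Cd79a and not for Ebf1 or Vpreb3. All paired-end peaks together covered 53680957 to 58393320 bp in KO and 65219912 to 70521560 bp in WT libraries, also without overlap. Over the list, 3 of 11 markers had a peak in 3 of 3 KO and 4 in 3 of 3 WT libraries, and peaks covered 14357 to 16520 bp in KO against 19086 to 20358 bp in WT libraries. Fcgr3, an Fc receptor gene among 12 myeloid markers, had folds of 4.30, 3.30 and 4.33 and was untested. A KO peak lay 296 bp from that member, and a region of all 6 libraries lay at the same gene end. For the myeloid list, 6 of 12 had a peak in 3 of 3 libraries of both genotypes, and peaks covered 11321 to 11959 bp in KO against 14300 to 14414 bp in WT libraries. The part of other cells in these members was not tested. Among 11 CD8 T and NK cell and 16 neuronal markers, 0 carried a member.

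Some members lay close to each other. On chromosome 7, 6 members lay within 160796 bp at the olfactory receptor genes Olfr527, Olfr60, Olfr531 and Olfr536. Their log2 fold changes ran from -3.02 to -2.41 in the authors' deposited table. Olfr531 carried 3 members. One had folds of 5.01, 3.90 and 5.81, the next 5.12, 5.30 and 3.62, and the last 4.90, 5.34 and 5.09 in WT replicates 1 to 3. The nearest KO peaks lay 15022 to 18021 bp away. Across the genome, 7 of 1110 olfactory receptor genes (0.63%) carried 10 members, against 2.07% of all protein-coding genes with a member. Of the 1110, 13 had a gene-end region with peaks in 3 of 3 WT libraries.

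On chromosome 19, 6 members lay within 93036 bp at Ms4a4b, Ms4a6c and Ms4a4d, members of a family of membrane-spanning proteins of blood cells. Ms4a6c carried 3 members at its start. The widest had folds of 3.08, 3.78 and 4.47 in WT replicates 1 to 3, and the others had 2.45, 3.19 and 3.65, and 2.63, 3.02 and 2.58. Only 1 of the 6, at Ms4a4d, was tested, with -1.67 in the authors' deposited table. Among 38 MHC genes named H2, 4 (10.5%) carried a member, and among 39 Hox genes Hoxa9, Hoxb9 and Hoxc9 (7.69%) did. The share over all protein-coding genes was 2.07%. A gene-end region with peaks in 3 of 3 WT libraries was present at 18 of the 38 H2 genes and at 7 of the 39 Hox genes. Families in these paragraphs were picked after the members were seen.

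By position, 200 members lay at a gene start, 106 at a gene end, 39 at both and 85 at genes whose strand was not in the promoter table. A region with peaks in all 6 libraries lay at the same end as 115 members and at the other end alone for 81. For the remaining 234 members (54.4%) no end of the gene had such a region. The KO-only regions at gene ends lacked one in 42 of 117 cases (35.9%). Members at gene starts lacked one in 130 of 200 cases (65.0%), and members at gene ends in 39 of 106 (36.8%).

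**Figure D3:**
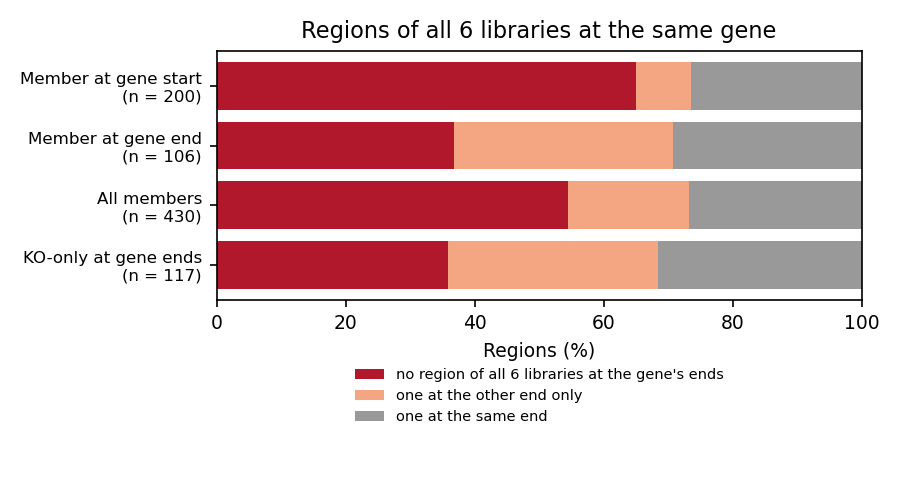
Percentage of regions whose gene has no region of all 6 libraries at its ends, one at the other end alone, or one at the same end. The first of these classes holds 65.0% of members at gene starts, 36.8% of members at gene ends and 35.9% of KO-only regions at gene ends.

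For 169 of the 453 genes (37.3%), no KO peak lay anywhere over the gene or within 2 kb of it. With the single-read lists added, 153 genes (33.8%) had none. Epas1, Scube1, Ppp1r14c, Fgg, Nlrp1a, Hemgn and Ifit3 were among the genes without a paired-end KO peak. Other tested regions of members' genes, which hold no member, numbered 824. The authors' deposited table called 65.2% of them lower and 4.25% higher, against 46.0% lower and 12.1% higher over all tested regions at or near a gene. Their median log2 fold change was -0.91, against -0.62 for all such regions, in the authors' deposited table. These come from the same contrast and the same genes as the choice of members, and nothing is read from the shares.

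The nearest KO peak lay a median of 6097 bp from a member, with a range of 148 to 705731 bp. It lay within 1 kb of 106 members (24.7%) and over 10 kb from 175 (40.7%). WT-only regions away from gene ends had a median of 4423 bp. KO-only regions at gene ends lay a median of 3715 bp from the nearest WT peak, within 1 kb in 32.5% and over 10 kb in 31.6% of cases. Thus the members held both shoulders of shared regions, such as Actg1, Lag3 and Pgam1, and isolated regions, such as Ppp1r14c and Fam174b.

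**Figure D4:**
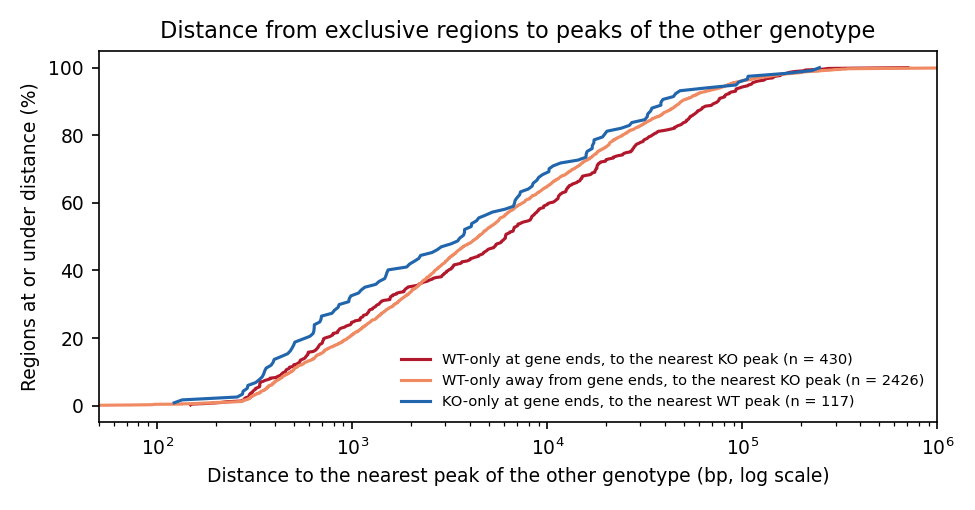
Cumulative percentage of regions by distance to the nearest peak of the other genotype, on a log scale in bp. Medians are 6097 bp for the members, 4423 bp for WT-only regions away from gene ends and 3715 bp for KO-only regions at gene ends.

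Weak WT peaks were more often without a KO peak than strong ones. Of 11177 gene-end regions with a peak in 3 of 3 WT libraries, 430 (3.85%) were members and 9921 (88.8%) had a peak in all KO libraries. In the members' interquartile range of lowest WT fold, 2.52 to 3.89, 214 of 1598 regions (13.4%) had no KO peak and 1022 (64.0%) had 3. Above 3.89, 108 of 9137 (1.18%) had no KO peak and 8702 (95.2%) had 3. Below a fold of 2.5, 103 of 425 regions (24.2%) were members. Most regions with a lowest WT fold between 2.52 and 3.89 were overlapped by a peak in 3 KO libraries. Regions were grouped by that fold alone and not by width, and an overlap of 1 bp counted. The part of lower KO coverage in the number of members was not tested.

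**Figure D5:**
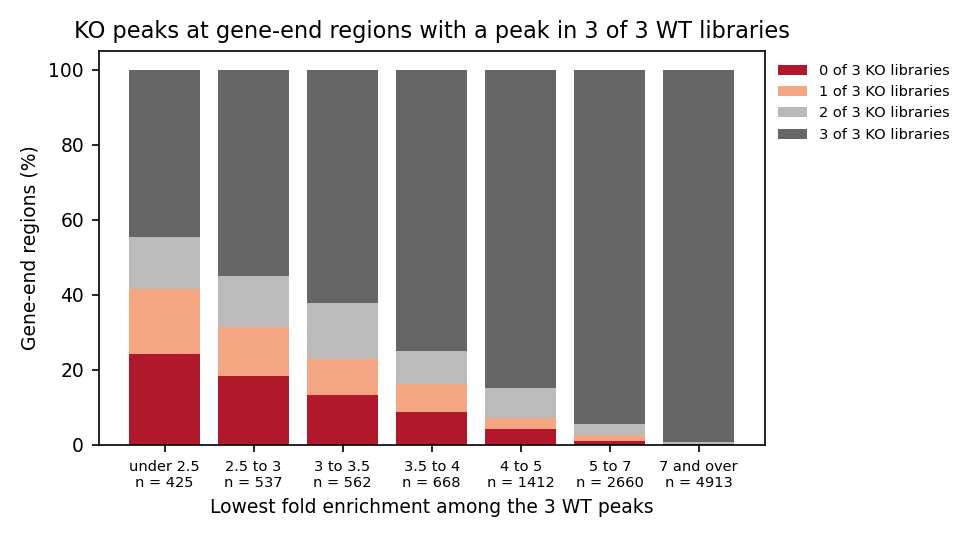
Share of gene-end regions with a peak in 3 of 3 WT libraries that had a peak in 0, 1, 2 or 3 KO libraries, in bins of the lowest of the 3 WT folds. The share without a KO peak is 24.2% below a fold of 2.5, 13.3% between 3 and 3.5, and 0.163% at 7 and over.

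Peak lists called on single reads of the same libraries gave another view. A single-read peak lay in 15, 14 and 16 members in KO replicates 1 to 3, against 209, 186 and 209 members in WT replicates 1 to 3. A KO single-read peak was present in at least 1 library for 30 members and in 3 libraries for 4, at Epas1, Il17d, Epm2a and Cfap77. In WT, 110 members had a single-read peak in 3 of 3 libraries. The same rule run on single-read lists gave 616 regions. These overlapped 83 of the 430 members (19.3%), and 88 of the 616 (14.3%) overlapped a member. The single-read lists held 156 KO-only gene-end regions, again fewer than WT-only ones, but the regions of both kinds of list were mostly different.

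At the 2 kb limit, the members just inside lay at Rgs8 (1994 bp from the gene end), Olfr536 (1992 bp) and Gm39773 (1981 bp). The Rgs8 member had folds of 2.56, 2.17 and 3.81 in WT replicates 1 to 3. WT-only regions just outside lay at Lpo (2009 bp), Btbd11 (2013 bp) and BC048562 (2029 bp), the last with folds of 7.72, 5.48 and 11.1. Values on both sides of the limit were of the same order.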

How the data were processed

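The deposited files were 12 peak lists, 2 for each of 6 ChIP libraries and called per library, and a differential table with its significant regions. Tools listed in the submitters' processing notes are MACS2 2.2.6, deepTools 3.3.2, Bowtie2 2.3.5.1, cutadapt 2.8 and bcl2fastq 2.20.0.422, and the build is given as GRCm38 and as mm10. Each deposited peak has a score, a linear ratio to local background (its fold), a -log10 p-value and a -log10 q-value, computed by the authors. The authors' deposited table holds a log2 fold change, a p-value and an FDR per region, without values per library, so leaving out a library does not change it. The labels and headers state neither its program and scaling nor whether input served as the peak caller's control.

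Paired-end lists were merged in Python 3.11.15 with pandas 2.3.3. Presence needed an overlap of at least 1 bp. Gene spans came from RefSeq GRCm38.p6, and strand from its promoter table, which held 368 of the 453 genes. Spans of unlisted tested regions were rebuilt from single-read peaks in windows of 150 bp, which returned 98.0% of the listed spans exactly. Peak heights were solved from fold and p, assuming MACS2's Poisson model, are on the scale it gave each library, and were checked on simulated peaks. The smallest background shared by at least 50 peaks stood for mean coverage.

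The members, gene lists and naming rule were chosen with earlier results of these data known. The rule named the 10 highest by lowest WT fold, the 10 lowest by deposited log2 fold change, members at genes of the 18 lists, the 4 widest, genes with 3 members and those beside the 2 kb limit. Genes named Gm plus digits or ending in Rik were passed over in the rankings by WT fold, by log2 fold change and by width. Some genes the rule takes are left out of this account. Genes of families and pairs named elsewhere were chosen after their values were seen. No test was run on the members. The alternatives were single-read lists, 2 stricter q-value rules, equal peak numbers, 50% coverage, distances of 1 and 5 kb, joining of gaps and leaving out each library.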

Additional observations from a re-analysis of the deposited data

How the results depend on the processing

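The number of members stayed within 1.5 times of 430 under 12 of 14 alternatives, but was 269 with 50% coverage and 705 within 5 kb. The median log2 fold change of the authors' deposited table stayed negative throughout, and was -1.28 with single-read peaks. Single-read peaks also gave a median lowest fold of 4.27, a median width of 483.0 bp, 572 members lower and 373 with a region of all 6 libraries at their gene. At -log10 q of at least 5, the median fold was 3.44 and the width 1003 bp, or 3.47 and 969.5 bp where only WT peaks had to meet it. Equal numbers of the strongest peaks gave 3.34 and 932.0 bp. With 50% coverage there were 60 KO-only regions, a width of 751.0 bp, 182 members lower and 119 with a region of all 6 libraries. Within 1 kb there were 73 KO-only regions and 101 members with a region of all 6 libraries. Within 5 kb there were 227 KO-only regions, 429 members lower, 460 with a region of all 6 libraries and a median fold of 2.96. Leaving out 1 library at a time gave 542 to 596 members, 137 to 215 KO-only regions, median folds of 3.10 to 3.30 and widths of 732.0 to 888.0 bp. Without KO replicate 1, 2 or 3 the KO-only count was 215, 185 or 194, against 117 with all libraries. Fewer libraries must meet the rule there, so counts can only grow for members when a KO library is dropped. The causes of the other shifts were not tested. No paired analysis was possible because the results come from no test, and the rule met within each same-numbered pair gives the same regions. Low KO coverage limits what absence of a peak shows.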
